A study of Mus musculus with 16 samples.

Results

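Transcripts of 40 genes of mitosis and chromosome segregation were followed across aortic and pulmonary valves of wild-type and mutant mouse embryos. The genes were taken from a list of symbols chosen by function, drawn up with earlier results of these data known, and all 40 were among the 13964 genes of the deposited table. RNA was sequenced from valves cut out by laser microdissection from C57BL/6 embryos at stage E14.5 (embryonic day), with 4 wild-type and 4 mutant libraries for each of the 2 valves. The mutants are Jag1flox;Nkx2.5-Cre embryos, in which Cre recombinase removes floxed Jag1 sequence from cells in which the cardiac gene Nkx2-5 is or was active. Mutants thus differ from wild type in the floxed Jag1 allele and possibly in the Cre, because the Cre status of wild-type embryos was not given in the sources used here. What loss of the Notch ligand Jag1 from the Nkx2-5 lineage changes in each outflow valve is the question of the design. The aortic libraries form one library batch and the pulmonary libraries another, so a difference between valves and a difference between batches cannot be told apart.

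A dividing cell makes most of the proteins that condense, align and part its chromosomes shortly before and during mitosis. Their transcripts are switched on together late in the cell cycle and fall away after division, so RNA of these genes in a tissue follows how many of its cells are in or near mitosis. In the outflow tract, cushion mesenchyme divides while the valve leaflets grow and take shape, and signals from the overlying endocardium, Notch signals among them, take part in that growth. In a bulk tissue sample, fewer cells of a type and less RNA per cell cannot be told apart.

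Values are normalised counts, that is, CPM (counts per megaread) rescaled by trimmed-mean factors. Each library held between 4.56 and 8.68 megareads as recovered from the values, and the lowest read count behind any member's value was 32, for Aurka in wild-type pulmonary library 3. Jag1 itself lay between 18.8 and 54.7 in wild-type and between 5.93 and 11.4 in mutant aortic libraries, and between 13.6 and 25.7 in wild-type and 1.85 and 12.4 in mutant pulmonary libraries, with no overlap in either valve. The libraries differed in tissue content. The mean log2 level of 11 valve and cushion markers ran from 6.63 to 8.81, that of 14 skeletal muscle markers from 0.25 to 5.90, and that of 13 erythroid markers from 4.78 to 9.10. Wild-type pulmonary library 1 was singled out beforehand because its proliferation genes are the highest. The pulmonary log2 differences of the members are given with and without it, and leaving it out lowers the wild-type pulmonary level through that choice.

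The proximal promoters of the members share sequence features, and 5 of them are shown here because the results below turn on these genes or because they show the range. Short motifs known from promoters of late cell cycle genes were searched on both strands: the cell cycle genes homology region (CHR, TTTGAA; variant TTCGAA) and the CCAAT box (CCAAT). Windows are RefSeq promoters on GRCm38.p6, 250 bases before to 50 bases after the annotated start, written 5′ to 3′ on the gene's strand, with matches in capitals and positions counted from the start as 0.

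Mki67 (chr7:135716330-135716629, minus strand): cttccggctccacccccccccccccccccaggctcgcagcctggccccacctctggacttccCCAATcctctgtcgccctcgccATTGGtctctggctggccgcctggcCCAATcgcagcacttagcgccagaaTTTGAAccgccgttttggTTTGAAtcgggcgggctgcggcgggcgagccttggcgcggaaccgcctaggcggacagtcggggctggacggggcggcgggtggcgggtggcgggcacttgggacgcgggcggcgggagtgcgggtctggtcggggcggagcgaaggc

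Top2a (chr11:99024140-99024439, minus strand): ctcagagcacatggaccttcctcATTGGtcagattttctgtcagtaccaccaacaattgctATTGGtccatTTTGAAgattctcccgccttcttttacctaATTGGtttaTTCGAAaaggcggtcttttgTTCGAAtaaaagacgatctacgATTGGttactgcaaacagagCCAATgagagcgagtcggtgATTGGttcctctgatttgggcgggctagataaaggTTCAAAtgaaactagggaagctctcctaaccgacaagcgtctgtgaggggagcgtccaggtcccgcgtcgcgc

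Cenpe (chr3:135212313-135212612, plus strand): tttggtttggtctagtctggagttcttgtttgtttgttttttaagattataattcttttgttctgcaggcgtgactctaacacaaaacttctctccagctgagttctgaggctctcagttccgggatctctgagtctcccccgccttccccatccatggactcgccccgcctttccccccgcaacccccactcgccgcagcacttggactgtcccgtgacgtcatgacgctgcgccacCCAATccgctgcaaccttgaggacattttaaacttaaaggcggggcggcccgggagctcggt

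Prc1 (chr7:80294201-80294500, plus strand): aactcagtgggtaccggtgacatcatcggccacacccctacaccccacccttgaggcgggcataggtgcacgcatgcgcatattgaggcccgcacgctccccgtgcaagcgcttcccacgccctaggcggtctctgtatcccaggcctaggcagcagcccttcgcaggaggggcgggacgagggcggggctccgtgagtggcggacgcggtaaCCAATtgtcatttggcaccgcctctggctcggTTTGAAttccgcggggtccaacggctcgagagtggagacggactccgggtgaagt

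Birc5 (chr11:117848987-117849286, plus strand): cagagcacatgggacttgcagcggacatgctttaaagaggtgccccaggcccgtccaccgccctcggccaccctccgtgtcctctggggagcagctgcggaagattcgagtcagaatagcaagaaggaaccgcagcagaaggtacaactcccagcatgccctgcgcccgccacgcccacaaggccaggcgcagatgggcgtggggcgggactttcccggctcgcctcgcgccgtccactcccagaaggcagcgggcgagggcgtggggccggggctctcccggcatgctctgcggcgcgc

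Mki67 held CHR matches beginning at -116 and -98, downstream of CCAAT boxes at -188, -166 and -141. Top2a held 6 CCAAT boxes, CHR matches at -179 and -23 and the variant at -140 and -120. Cenpe held a single CCAAT box at -12 and no CHR match, while Prc1, shown with the first of its 2 windows, held a CHR match at -5 and a CCAAT box at -37. Birc5 had none of these letters in its window, as had Nuf2 and Nusap1. RefSeq windows were matched for 34 of the 40 members, and Aurkb, Ccna2, Incenp, Kif20a, Smc4 and Tpx2 were without an entry. A CHR match was present in 28 of the 34 (82.4%), against 20.2% of all 27025 genes with a window of that length. A CCAAT box was present in 27 (79.4%, against 41.1%), and a CHR or variant match together with a CCAAT box in 25 (73.5%, against 8.61%). In 82 further mitosis genes, of which 65 had a window, the shares were 43.1% for CHR, 63.1% for the CCAAT box and 36.9% for both. A match describes letters in the window and shows no binding.

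All 40 members were measured in every library, and their levels spanned about an order of magnitude per length of transcript. Per kilobase of the longest coding transcript, Top2a, which untangles DNA strands, averaged a normalised count of 78.8 over the 16 libraries, Mki67, which coats mitotic chromosomes, 75.1, and Ccna2, the cyclin A of dividing cells, 66.5. Smc4 of condensin followed at 57.4 and Ube2c, the ubiquitin-conjugating partner of the anaphase-promoting complex, at 56.2. The lowest were Knl1, a kinetochore scaffold, at 9.35, the microtubule depolymerase Kif2c at 9.24 and Ect2, the activator of RhoA at the cleavage site, at 8.02. The exons of 12 members overlap another annotated gene, 10 of them on the opposite strand, and counting by strand was not given in the sources used here. Ccnb1, Ndc80 and Racgap1 have near-identical pseudogene copies, none of which is in the table, so their values are uncertain by what those copies contribute.

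**Figure D1:**
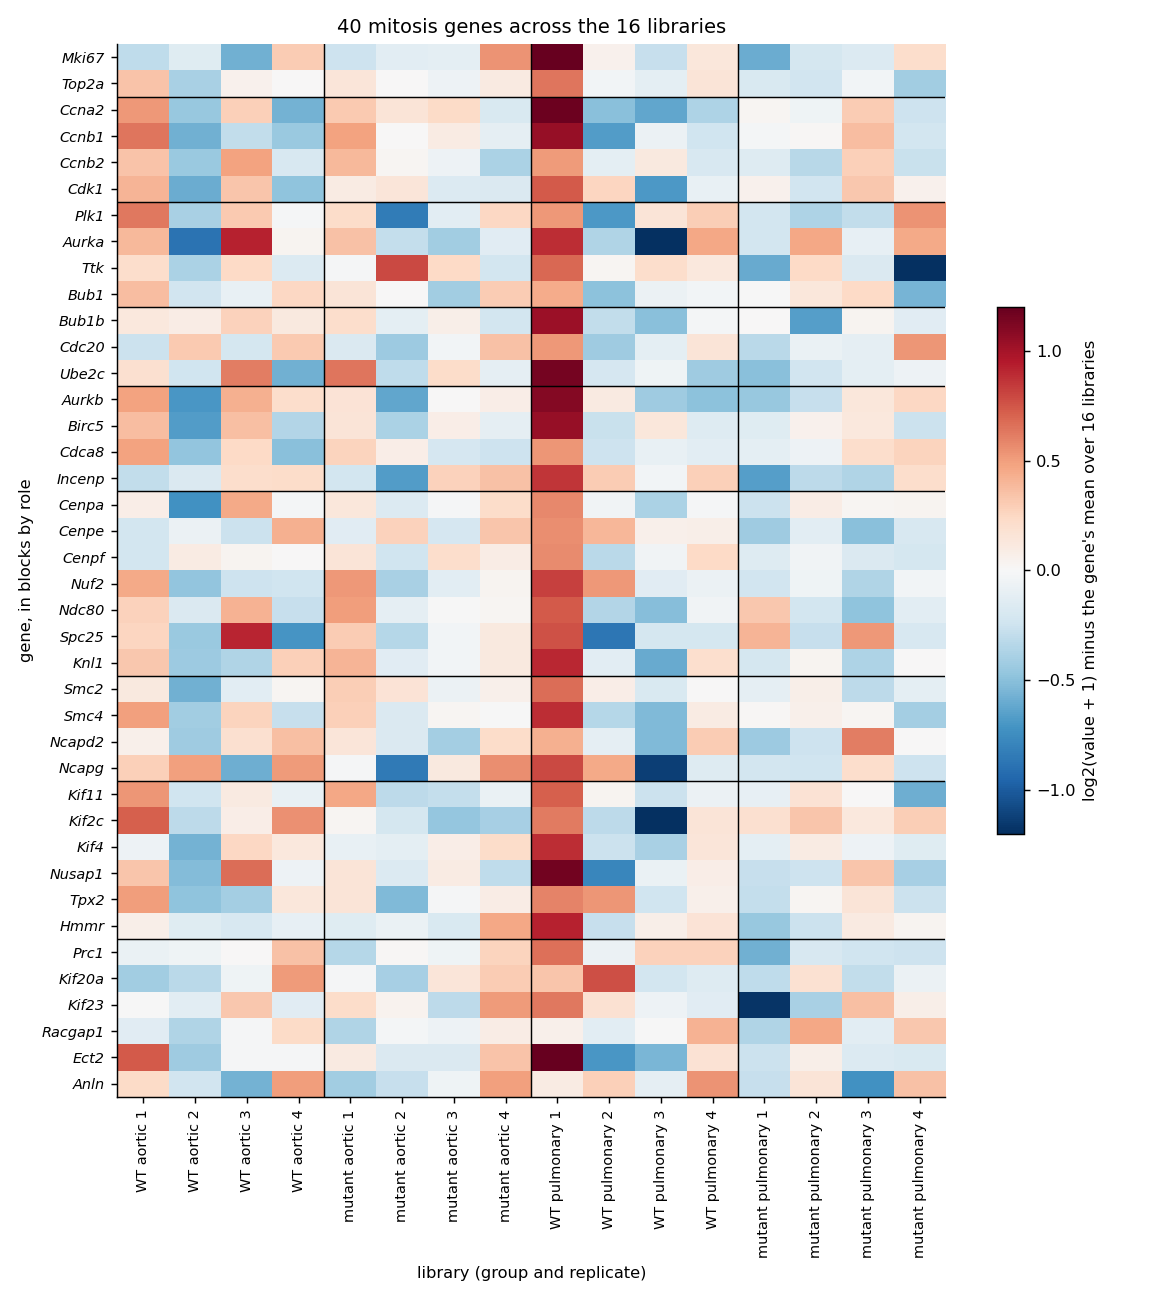
Level of each of the 40 mitosis genes (rows, in blocks by role) in each of the 16 libraries (columns), as log2(value + 1) minus the gene's mean over the libraries; red is above and blue below that mean, and colours saturate at 1.2 either way. The column of wild-type pulmonary library 1 is red in nearly every row, and this library is the highest of 16 for 30 of the 40 genes.

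The most visible feature of these genes was 1 library. It had been singled out beforehand for its high proliferation genes, so its top rank here is not an independent finding. Wild-type pulmonary library 1 was the highest of the 16 for 30 of the 40 members and among the top 3 for 38. Over all 13963 genes tested, 11.1% were highest in that library. The mean log2(value + 1) over the 40 members was 6.98 there, and 5.90 to 6.45 in the other 15 libraries. Within wild-type pulmonary, libraries 2, 3 and 4 were at 6.11, 5.95 and 6.27. Group means were 6.33 ± 0.45 (SD, n = 4) for wild-type and 6.13 ± 0.09 for mutant pulmonary valve, and 6.23 ± 0.24 for wild-type and 6.23 ± 0.14 for mutant aortic valve. Without library 1 the wild-type pulmonary mean was 6.11 ± 0.16 (n = 3), so the mutant and wild-type pulmonary ranges overlapped either way.

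The elevation in wild-type pulmonary library 1 was not the same for all roles. Against the mean of the other 3 wild-type pulmonary libraries it was 1.13 (log2) for the cyclins and Cdk1, 1.11 for the checkpoint and anaphase-promoting complex genes and 1.09 for Mki67 and Top2a. It was 0.97 for spindle motors and spindle-associated proteins as for the chromosomal passenger complex, 0.86 for condensin, 0.82 for centromere and kinetochore genes and 0.80 for the other mitotic kinases. For the midzone and cytokinesis genes, which act last, it was 0.46. In that role the library ranked 6th of 16 for Racgap1, a subunit of centralspindlin, 8th for Anln, the anillin scaffold of the contractile ring, and 3rd for the midzone kinesin Kif20a. These differences between roles were not tested, since they concern 1 library.

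Markers of other cell types moved with this library. Its mean log2 level of erythroid markers was 9.10, the highest of the 16, and 10 of the 13 erythroid markers in the table peaked there. The summed erythroid level ran from 2788 to 42075 for wild-type and 2804 to 11986 for mutant pulmonary valve, and from 1393 to 40954 for wild-type and 3830 to 7275 for mutant aortic valve. Epb42, among these markers, was at 0 in mutant pulmonary libraries 2 and 4 and above 0 in the other libraries. The valve and cushion marker mean of wild-type pulmonary library 1 was 6.72, against 8.39 to 8.74 in the other 3 wild-type pulmonary libraries. Mutant pulmonary library 1, of the same litter, was at 6.63 and wild-type aortic libraries 1 and 3 at 6.86 and 6.83, with member means of 5.99, 6.45 and 6.34. The endothelial marker mean of 4.19 in wild-type pulmonary library 1 was the lowest of the 16. Wild-type aortic library 2 held about as much summed erythroid signal (40954, against 42075). Its member mean of 5.90 was the lowest of all libraries. It was the highest for none of the 40 members (5.73% of all genes) and the lowest for 7 (5.01% of all genes). Wild-type pulmonary library 3 was the lowest for more members, 9 (8.01% of all genes). The erythroid genes differed between wild-type pulmonary library 1 and wild-type aortic library 2. The beta globin Hbb-bs was at 16659 in wild-type pulmonary library 1 and 16809.6 in wild-type aortic library 2. The embryonic globin Hbb-y was at 510.0 and 4741, and the transferrin receptor gene Tfrc at 192 and 17.2. Of all 13 erythroid markers, 10 were highest of the 16 libraries in wild-type pulmonary library 1 and 3 in wild-type aortic library 2. Tfrc stayed between 15.8 and 66.8 in every library other than wild-type pulmonary library 1. The part that erythroid cells or the amount of valve tissue have in the mitosis values of that library was not tested.

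**Figure D2:**
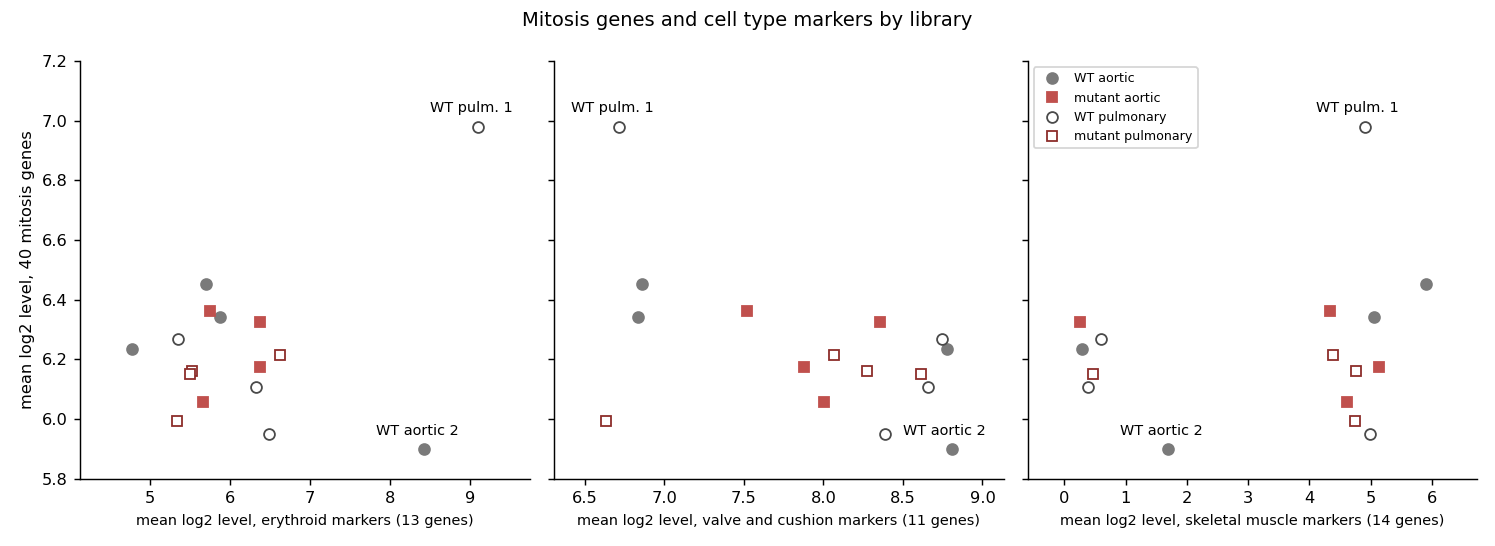
Mean log2(value + 1) of the 40 mitosis genes (vertical axis, from 5.8 to 7.2) in each of the 16 libraries, against the mean log2 level of erythroid, valve and cushion, and skeletal muscle markers (horizontal axes); circles are wild type, squares mutant, filled aortic and open pulmonary. Wild-type pulmonary library 1 sits at the top with the highest erythroid mean, and wild-type aortic library 2, with the next highest, sits at the bottom.

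In the pulmonary valve, mitosis genes mostly had lower mean values in mutants than in wild type, and most of that rested on wild-type pulmonary library 1. With all libraries, 34 of the 40 members had a log2 difference (mutant minus wild type) below 0, with a median of -0.21, while 49.07% of all genes tested lay below 0 with a median of 0.01. Without that library 18 lay below 0 and 22 above, and the median was 0.04 (all genes 49.22% and 0.01). As the library was singled out for high proliferation genes, an upward shift on leaving it out was fixed in advance. No member passed limma's test at an adjusted p under 0.05, and neither did any other gene (0.0%); edgeR called none and DESeq2 called 2 genes, no member among them. In all, 437 of 13963 genes had an unadjusted limma p under 0.05, fewer than the 1 in 20 that chance gives when no gene differs. Of the members, Cenpe, Incenp, Prc1 and Ttk were lower at that level (4 of 40, 10%; 1.45% of all genes tested), and none was higher (1.68% of all genes). Without wild-type pulmonary library 1 only Cenpe and Prc1 were lower at that level (2 of 40, 5%; 1.87% of all genes), and Kif2c was higher (1 of 40, 2.5%; 2.75% of all genes). Without mutant pulmonary library 1, Cenpe and Prc1 were also the 2 members left (1.39% of all genes).

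Markers of several other cell types moved with this comparison. Of 13 erythroid markers 11 lay below 0, with a median log2 difference of -1.20 (10 of 13 and -0.39 without wild-type pulmonary library 1), and of 11 valve and cushion markers 8 did, with -0.29 (10 of 11 and -0.45). On the other side, all 6 neuronal markers lay above 0, with a median of 1.498 (6 of 6 and 1.72), as did 13 of 14 skeletal muscle markers, with 0.75 (14 of 14 and 1.38). With all libraries, 6 of 7 Schwann cell and neural crest markers (median 0.62) and 10 of 14 cardiomyocyte markers (0.42) also lay above 0. The endothelial, macrophage and smooth muscle medians were -0.0038, -0.04 and 0.16. The summed neuronal level ran from 54.0 to 92.3 in the wild-type pulmonary group. It was at 519, 87.8, 80.5 and 88.4 for mutant pulmonary libraries 1 to 4, so library 1 alone exceeded the wild-type range. The mean log2 neuronal level ran from 2.16 to 3.13 in wild-type and from 3.16 to 5.70 in mutant pulmonary libraries. The summed skeletal muscle level was at 964, 5.88, 1302 and 10.3 for wild-type pulmonary libraries 1 to 4. For mutant pulmonary libraries 1 to 4 it was at 934, 855, 687 and 10.7. The part of these cell types in the mitosis values was not tested. With the erythroid marker mean as a covariate in the model, the members' median was -0.11, and with the skeletal muscle mean it was -0.23. Wild-type pulmonary library 1 had both the highest erythroid mean (9.10) and the highest member mean (6.98). The effect of the erythroid covariate thus cannot be told apart from giving that library less weight. Weighting each library by its estimated quality left 28 of 40 members below 0, with a median of -0.05. Scaling by median ratios or by quantiles gave members' medians of -0.21 and -0.16.

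Prc1 and Cenpe were the members whose mutant pulmonary libraries all lay below all wild-type ones. Prc1 bundles the antiparallel microtubules of the spindle midzone. Its gene (ENSMUSG00000038943) lies at chr7:80294450-80316259 on GRCm38. It was at 136, 81.5, 104 and 104 for wild-type pulmonary libraries 1 to 4 and at 57.4, 74.9, 72.4 and 71.9 for mutant libraries 1 to 4. The highest mutant value lay under the lowest wild-type one, and the group means were 107 ± 22.4 and 69.1 ± 7.93 (SD, n = 4). The log2 difference was -0.60 (SE 0.20, 95% interval -1.01 to -0.19; limma adjusted p = 1). Without wild-type pulmonary library 1 it was -0.48 (limma adjusted p = 0.813). Its exons overlap Rccd1 on the opposite strand over 911 bases, and Rccd1 was between 1.11 and 14.4 in all 16 libraries.

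Cenpe encodes the kinesin motor that carries chromosomes to the spindle equator. Its gene (ENSMUSG00000045328) lies at chr3:135212537-135273611. It was at 205, 183, 144 and 145 for wild-type pulmonary libraries 1 to 4 and at 103, 127, 97.1 and 121 for mutant libraries 1 to 4. Again no mutant library reached the lowest wild-type one, with means of 169 ± 29.7 and 112 ± 14.1 (SD, n = 4). The log2 difference was -0.58 (SE 0.20, 95% interval -1.01 to -0.16; limma adjusted p = 1), and without wild-type pulmonary library 1 it was -0.49 (limma adjusted p = 0.813). Complete separation with lower mutants was thus seen for 2 of 40 members (5%; 1.05% of all genes), and with higher mutants for none (0.938% of all genes). Without wild-type pulmonary library 1 the same 2 separated downward (3.85% of all genes do so with 3 against 4 libraries), and Ccna2 separated upward (3.42%).

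Incenp and Ttk also had unadjusted p-values under 0.05, with overlapping groups. Incenp is the scaffold of the chromosomal passenger complex, which corrects faulty chromosome attachments. It was at 109, 74.0, 58.1 and 73.0 for wild-type pulmonary libraries 1 to 4 and at 37.3, 47.8, 46.3 and 69.3 for mutant libraries 1 to 4. Mutant library 4 overlapped the wild-type range, and the log2 difference was -0.63 (SE 0.27, 95% interval -1.20 to -0.07; limma adjusted p = 1) with all libraries and -0.47 (limma adjusted p = 0.813) without wild-type pulmonary library 1. Ttk (Mps1) is the kinase that starts the spindle checkpoint. It was at 51.7, 32.3, 36.8 and 34.6 for wild-type pulmonary libraries 1 to 4 and at 20.6, 37.6, 28.0 and 13.2 for mutant libraries 1 to 4. Mutant library 2 exceeded 3 of the 4 wild-type libraries, and mutant library 4 had the lowest value of all 16. The log2 difference was -0.70 (SE 0.31, 95% interval -1.35 to -0.04; limma adjusted p = 1), and -0.55 (limma adjusted p = 0.813) without the library.

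**Figure D3:**
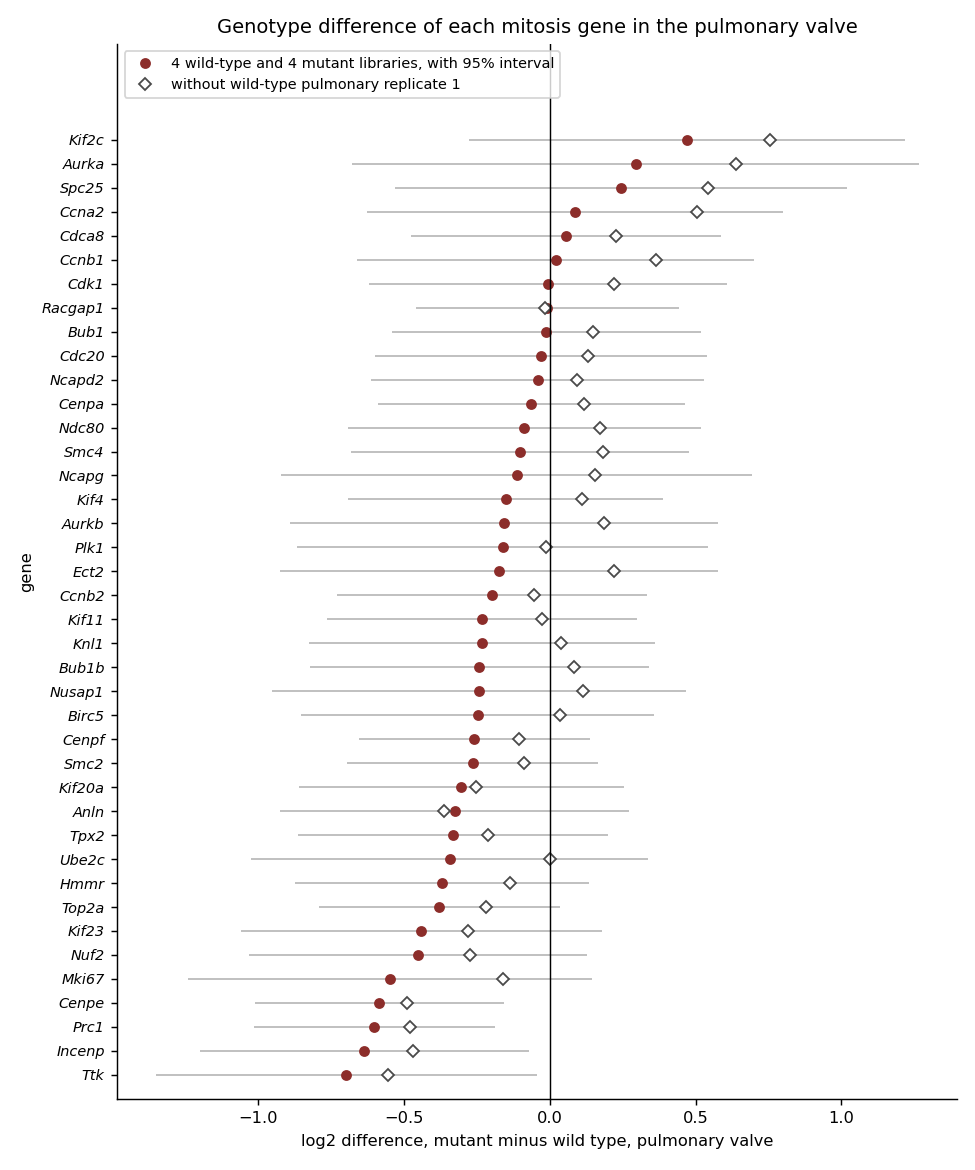
Log2 difference of each of the 40 mitosis genes between mutant and wild-type pulmonary valve (horizontal axis, below 0 lower in mutants), with 4 libraries per group (filled circles, lines are 95% intervals) and without wild-type pulmonary library 1 (open diamonds). Most circles lie left of 0, and the intervals of 36 of the 40 genes hold 0. Most diamonds lie to the right of their circles, a direction fixed by singling out that library for high proliferation genes.

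The markers most used for dividing cells overlapped between genotypes in the pulmonary valve, Mki67 widely and Top2a by 1 library. Mki67 was at 2013, 731, 582 and 772 for wild-type pulmonary libraries 1 to 4 and at 465, 607, 629 and 818 for mutant libraries 1 to 4. The value of 2013 stood far above all others, and without it the wild-type and mutant ranges overlapped. Its log2 difference was -0.55 (SE 0.33, 95% interval -1.24 to 0.15; limma adjusted p = 1) with all libraries and -0.16 without that one. Top2a was at 634, 395, 373 and 451 for wild-type pulmonary libraries 1 to 4 and at 357, 346, 396 and 302 for mutant libraries 1 to 4. Mutant library 3 alone reached into the wild-type range, and the log2 difference was -0.38 (SE 0.19, 95% interval -0.79 to 0.03; limma adjusted p = 1), or -0.22 without library 1.

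The cyclins and Cdk1, which drive entry into mitosis, had log2 differences near 0 with all libraries, from -0.20 to 0.09. Cdk1, the kinase that triggers mitosis, was at 111, 79.6, 40.8 and 62.2 for wild-type pulmonary libraries 1 to 4 and at 68.9, 56.4, 83.0 and 68.5 for mutant libraries 1 to 4. The mutant values lay within the wild-type range, and the log2 difference was -0.01 (95% interval -0.62 to 0.61), or 0.22 without wild-type pulmonary library 1. Its partner Ccnb1, cyclin B, was at 198, 59.7, 90.8 and 80.6 for wild-type pulmonary libraries 1 to 4 and at 94.2, 96.2, 124 and 82.1 for mutant libraries 1 to 4. Mutant values overlapped those of wild-type libraries 2 to 4 and mostly exceeded them, and the log2 difference was 0.02 with that library and 0.36 without it. Ccna2 was at 422, 131, 121 and 144 for wild-type pulmonary libraries 1 to 4 and at 189, 180.2, 231 and 157 for mutant libraries 1 to 4. All 4 mutant libraries lay above wild-type libraries 2, 3 and 4 and below library 1, so the log2 difference was 0.09 with it and 0.51 (limma adjusted p = 0.813) without it. Ccna2 shares 510 exonic bases with Exosc9 on the opposite strand, which was at 9.22 to 33.2. Ccnb2, the other B-type cyclin, had a log2 difference of -0.20, or -0.05 without the library.

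Among the checkpoint and anaphase genes, Ube2c was at 259.8, 101.2, 112 and 86.4 for wild-type pulmonary libraries 1 to 4 and at 82.1, 99.3, 107 and 112 for mutant libraries 1 to 4. The value of 260 in library 1 stood alone, and the log2 difference was -0.34 with that library and 0.0019 without it. Ube2c shares 592 exonic bases with Tnnc2, a skeletal muscle troponin gene on the opposite strand. In the 6 libraries with Tnnc2 at 2.04 or less, Ube2c was at 78.1 to 112, and in the other 10, with Tnnc2 at 51.4 to 167, it was at 82.1 to 260; the part of Tnnc2 reads in the Ube2c values was not tested. Bub1b (BubR1), which holds back anaphase, was at 125, 49.5, 42.6 and 60.1 for wild-type pulmonary libraries 1 to 4 and at 61.3, 38.1, 62.4 and 55.3 for mutant libraries 1 to 4. Its library 1 value stood apart from the other 7 pulmonary ones, and the log2 difference was -0.24 with and 0.08 without that library. Cdc20, the activator of the anaphase-promoting complex, had log2 differences of -0.03 and 0.13.

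In the chromosomal passenger complex, the partners of Incenp differed from it. Birc5 (survivin) was at 172, 68.9, 91.5 and 74.5 for wild-type pulmonary libraries 1 to 4 and at 74.9, 86.3, 90.4 and 69.3 for mutant libraries 1 to 4. The mutant values lay inside the wild-type range, with a log2 difference of -0.25 (95% interval -0.85 to 0.36) and of 0.04 without wild-type pulmonary library 1. Aurkb, the kinase of the complex, had log2 differences of -0.16 and 0.19, and Cdca8 (borealin), which targets it to centromeres, 0.06 and 0.23, with and without that library. The 4 members of the complex thus ranged from -0.63 to 0.06 with all libraries.

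At the kinetochore, the protein platform that binds spindle microtubules, Nuf2 was at 67.5, 54.6, 34.3 and 36.0 for wild-type pulmonary libraries 1 to 4 and at 32.0, 36.5, 29.3 and 36.9 for mutant libraries 1 to 4. Its groups overlapped, and the log2 difference was -0.45 (95% interval -1.03 to 0.13; limma adjusted p = 1) with all libraries and -0.27 without wild-type pulmonary library 1. With and without that library, Cenpf, a large outer kinetochore protein, had -0.26 and -0.10, Cenpa, the centromeric histone, -0.06 and 0.12, and Knl1 -0.23 and 0.04. Ndc80, the partner of Nuf2, had -0.09 and 0.17, and Spc25, a subunit of the same complex, 0.25 and 0.54. So 6 of the 7 kinetochore and centromere members were below 0 with all libraries and 3 of 7 without it. The 4 condensin members, which compact chromosomes, were all below 0 but close to it, from -0.26 for Smc2 to -0.04 for Ncapd2. Without the library Smc2 was at -0.09 and the other 3 lay above 0, Ncapg at 0.15 (from -0.11), Smc4 at 0.18 and Ncapd2 at 0.09. Ncapg shares 944 exonic bases with Lcorl on the opposite strand, which was at 24.0 to 51.2.

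Among the mitotic kinases outside the passenger complex, Plk1, which acts from entry to cytokinesis, was at 41.5, 17.4, 32.0 and 35.4 for wild-type pulmonary libraries 1 to 4 and at 24.3, 21.9, 23.1 and 41.9 for mutant libraries 1 to 4. Mutant library 4 was the highest of these 8, just above wild-type library 1, and the log2 difference was -0.16 with and -0.01 without wild-type pulmonary library 1. The checkpoint kinase Bub1 had -0.01 and 0.15, and Aurka, the centrosomal Aurora kinase, 0.29 and 0.64, where Ttk had -0.70 and -0.55.

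The spindle motors included the member with the largest value above 0. Kif2c (MCAK), which removes faulty attachments, was at 38.7, 19.8, 8.80 and 27.8 for wild-type pulmonary libraries 1 to 4 and at 28.5, 31.5, 27.2 and 30.8 for mutant libraries 1 to 4. The mutant libraries were tightly grouped at a mean of 29.5 ± 2.02 (SD, n = 4) within a wild-type range from 8.80 to 38.7. The log2 difference was 0.47 (SE 0.35, 95% interval -0.28 to 1.22; limma adjusted p = 1), and 0.76 without wild-type pulmonary library 1 (limma adjusted p = 0.813). Hmmr, a spindle pole protein, had -0.37 with and -0.13 without the library. Tpx2, which activates Aurora A on the spindle, had -0.33 and -0.21, and the bipolar kinesin Kif11 -0.23 and -0.03. The chromokinesin Kif4 went from -0.15 to 0.11 and Nusap1, a microtubule bundler, from -0.24 to 0.11.

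Wild-type pulmonary library 1 was raised least for the midzone and cytokinesis genes, 0.46 (log2) above the mean of the other wild-type pulmonary libraries. Leaving it out therefore moved the mean genotype difference of these genes least, by arithmetic alone. All 6 lay below 0 with all libraries (median -0.31), and 5 of 6 did without wild-type pulmonary library 1 (median -0.27); Mki67 and Top2a, the role of general proliferation, were below 0 in both (medians -0.46 and -0.19). Beside Prc1, Anln was at 104, 118, 89.4 and 141 for wild-type pulmonary libraries 1 to 4 and at 79.6, 108, 57.9 and 124 for mutant libraries 1 to 4. It was lower in the mutant of all 4 litter pairs although the groups overlapped, with a log2 difference of -0.33 and of -0.36 without library 1. Kif20a had -0.30 and -0.25. It shares 1271 exonic bases with Cdc23 on the opposite strand, which was at 76.2 to 141.5 where Kif20a was at 40.1 to 93.1, and the part of Cdc23 reads in the Kif20a values was not tested. Kif23, the motor of centralspindlin, had -0.44 and -0.28. Racgap1 was near 0 in both (-0.01 and -0.02), and Ect2 went from -0.17 to 0.22. No p-value of these 5 was under 0.05. Whether the roles differ from one another was not tested.

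**Figure D4:**
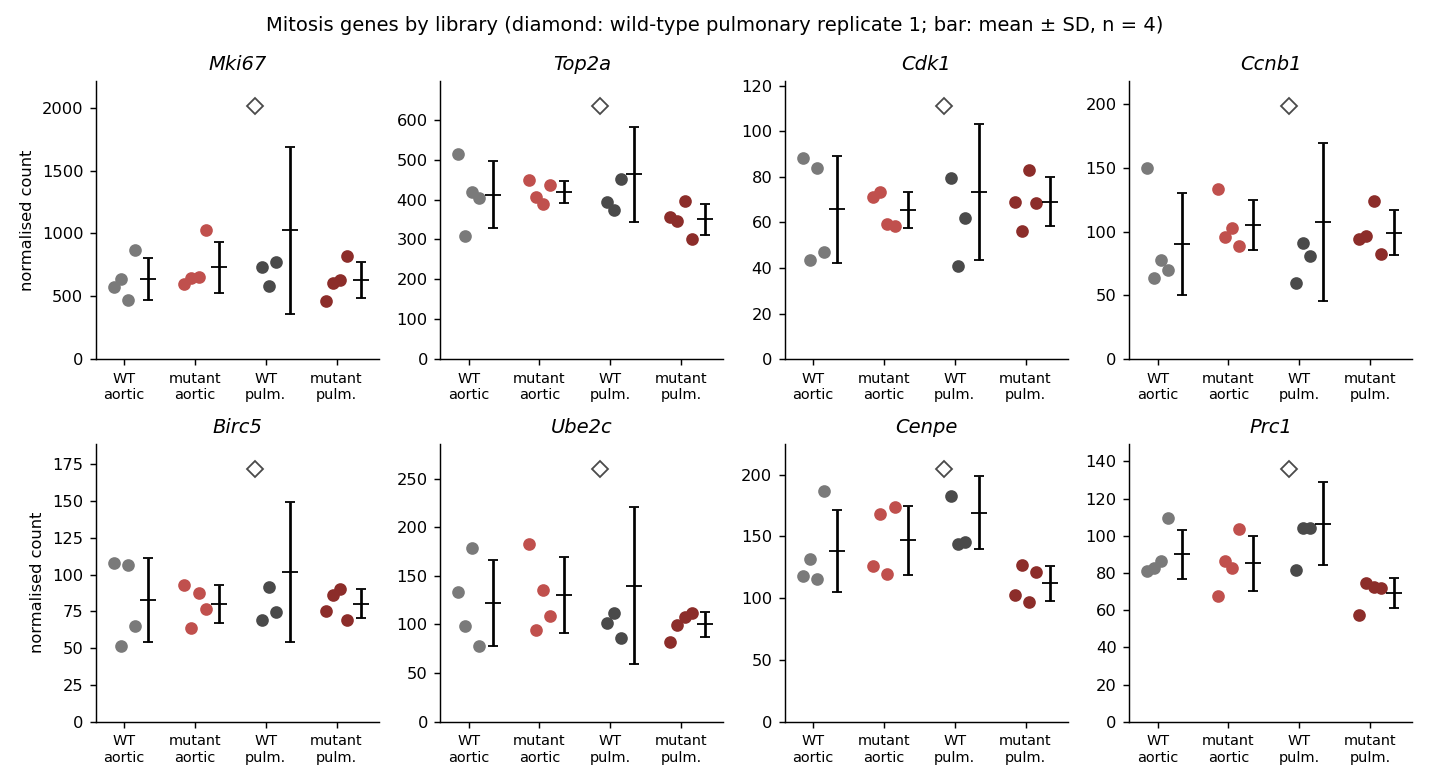
Normalised count of 8 mitosis genes in each library (points) of the 4 groups, with the group mean ± SD (n = 4, bars to the right of the points); the open diamond is wild-type pulmonary library 1, and each axis starts at 0. The diamond is the highest point in every panel, and in the panels of Cenpe and Prc1 the mutant pulmonary points all lie below the wild-type pulmonary ones.

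Same-numbered wild-type and mutant libraries of a valve share a litter, so each valve can be read as 4 pairs. In the pulmonary valve, Anln, Cenpe, Incenp, Prc1 and Smc2 were lower in the mutant of 4 of 4 pairs (5 of 40, 12.5%; 6.9% of all genes), and no member was higher in all 4 (6.67% of all genes). In the aortic valve, Mki67, Nuf2 and Smc2 were higher in the mutant of 4 of 4 pairs (3 of 40, 7.5%; 5.99% of all genes), and none was lower in all 4 (5.03%). Smc2, a condensin ATPase, therefore had one sign in all aortic pairs and the other in all pulmonary pairs. It was at 169, 104, 142 and 158 for wild-type aortic libraries 1 to 4 and at 191, 175, 148 and 163 for mutant libraries 1 to 4, and at 248, 165, 137 and 156 for wild-type pulmonary libraries 1 to 4 and at 144, 163, 125 and 143 for mutant libraries 1 to 4. The aortic and pulmonary differences were 0.25 (95% interval -0.18 to 0.68) and -0.26 (95% interval -0.69 to 0.17), with -0.09 for the pulmonary valve without wild-type pulmonary library 1, and their difference was -0.52 (SE 0.29, 95% interval -1.12 to 0.09; limma adjusted p = 1).

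In the aortic valve, the genotype differences of mitosis genes scattered on both sides of 0. Of the 40 members 18 lay below 0 and 22 above, with a median log2 difference of 0.01, against 47.22% below 0 and a median of 0.02 over all genes tested. No gene passed limma's test (0.0%) or edgeR's or DESeq2's; 196 genes had an unadjusted limma p under 0.05, and no member was among them (0.695% of all genes lower, 0.709% higher). No member's mutant libraries lay all below (0.824% of all genes) or all above (0.759%) the wild-type ones. The intervals of all 40 members held 0, with a median half-width of 0.58. These intervals are not adjusted for the number of genes tested, so differences larger than that could also go uncalled at this number of libraries.

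The aortic member with the smallest p was Kif2c, at 41.4, 19.7, 26.2 and 36.7 for wild-type aortic libraries 1 to 4 and at 25.2, 21.3, 17.7 and 18.6 for mutant libraries 1 to 4. Wild-type library 2 lay within the mutant range, and the log2 difference was -0.52 (SE 0.35, 95% interval -1.27 to 0.23; limma adjusted p = 1). Mki67 was at 570.2, 635, 472 and 870.2 for wild-type aortic libraries 1 to 4 and at 595, 646, 650.1 and 1027 for mutant libraries 1 to 4. Every mutant library was above its litter mate, by little in pairs 1 and 2, and the log2 difference was 0.20 (95% interval -0.50 to 0.89). Top2a was at 514, 309, 419 and 405 for wild-type aortic libraries 1 to 4 and at 448, 407, 388 and 436 for mutant libraries 1 to 4, with a log2 difference of 0.05 and mutant values inside the wild-type range. Ccnb1 was at 149.6, 63.8, 77.5 and 69.8 for wild-type aortic libraries 1 to 4 and at 134, 95.7, 103 and 88.6 for mutant libraries 1 to 4. Wild-type library 1 was highest of the 8, the other 3 wild-type libraries lay below every mutant one, and the log2 difference was 0.29 (95% interval -0.39 to 0.97).

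Markers of other cell types differed in the aortic comparison too. All 6 neuronal markers lay above 0 (median 1.14), as did 7 of 9 endothelial (0.58) and 11 of 14 skeletal muscle markers (0.46). Below 0 lay 13 of 14 cardiomyocyte markers (median -0.31) and 8 of 13 erythroid markers (-0.15). The medians were 0.15 for valve and cushion, 0.0023 for macrophage, -0.20 for Schwann cell and neural crest and -0.25 for smooth muscle markers. Their part in the mitosis values was not tested.

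The group means of further members lay close together in the aortic valve. Cdk1 averaged 65.7 ± 23.7 in wild-type and 65.5 ± 7.83 in mutant libraries (SD, n = 4), and Birc5 82.8 ± 28.8 and 80.2 ± 12.9. Prc1 averaged 90.04 ± 13.4 and 85.2 ± 14.9, with a log2 difference of -0.08, and Cenpe 138 ± 33.1 and 147 ± 28.0, with 0.10. Both genes that separated the pulmonary groups thus had overlapping aortic groups. Incenp averaged 60.1 ± 10.95 and 59.3 ± 18.5, and Ttk 31.7 ± 6.63 and 37.9 ± 12.7. All 7 centromere and kinetochore members lay above 0 in the aortic valve, by 0.01 to 0.14, and 3 of the 4 mitotic kinases below 0.

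The difference between the valves' genotype effects was tested as an interaction. No gene passed (0.0%; 264 at an unadjusted limma p under 0.05, none by edgeR or DESeq2). Of the members 29 lay below 0, with a median of -0.15 (all genes 51.69% and -0.02), and without wild-type pulmonary library 1 16 lay below 0, with a median of 0.03. As that library was singled out for high proliferation genes, an upward shift of the interaction on leaving it out was fixed in advance. This also bears on the value of Kif2c without it, given below. Cenpe was the member with an unadjusted p under 0.05 on the lower side (1 of 40, 2.5%; 0.888% of all genes): its interaction was -0.68 (SE 0.29, 95% interval -1.29 to -0.08; limma adjusted p = 1), and -0.59 (limma adjusted p = 0.969) without that library, where no member was left on the lower side (1.3% of all genes). None was left without mutant pulmonary library 1 either (132 of all 13963 genes were lower at that level). Lower were 2 members without library 2 of either pulmonary group, wild-type pulmonary library 3 or wild-type aortic library 4 (111 to 169 of 13963 genes). Without mutant aortic library 1 they were 3 (175 of 13963 genes). Ttk followed with -0.92 (SE 0.44, 95% interval -1.84 to 0.01). Kif2c lay on the other side, at 0.99 (SE 0.50, 95% interval -0.07 to 2.05) and at 1.27 (limma adjusted p = 0.969) without wild-type pulmonary library 1, where it was the member with an unadjusted p under 0.05 (1 of 40; 1.58% of all genes higher). For Prc1 the interaction was -0.52 (SE 0.28, 95% interval -1.10 to 0.07; limma adjusted p = 1), so its pulmonary and aortic differences were not shown to differ.

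Averaged over both valves, which uses the same libraries as the comparisons above, 33 of the 40 members lay below 0, with a median of -0.11 (all genes 47.76% and 0.01). Without wild-type pulmonary library 1 they were 21 of 40, with a median of -0.0038, an upward shift that was fixed by singling out that library. Weighting libraries by quality gave 22 of 40 and -0.0077. No gene passed limma's test (0.0%; 389 at an unadjusted p under 0.05) or edgeR's, DESeq2 called 5 genes, and no member was called. Prc1 was the member with an unadjusted p under 0.05 (1 of 40, 2.5%; 1.19% of all genes were lower at that level), at -0.34 (SE 0.14, 95% interval -0.64 to -0.05; limma adjusted p = 1). It was lower in the mutant of 3 of 4 aortic and 4 of 4 pulmonary pairs. Without wild-type pulmonary library 1 its mean difference was -0.28 (limma adjusted p = 0.996), and no member was lower at an unadjusted p under 0.05 (1.57% of all genes). That count was also 0 without wild-type aortic library 4, mutant aortic library 1 or mutant pulmonary library 1 (158, 145 and 167 of all 13963 genes). It was 2 without library 4 of the mutant aortic or mutant pulmonary group (206 and 212 of 13963 genes).

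Between the valves, with genotypes averaged, mitosis genes were near level: 21 of 40 were lower in pulmonary libraries, with a median log2 difference of -0.01 (all genes 52.85% and -0.01). No gene passed (0.0%; 47 at an unadjusted limma p under 0.05, none by edgeR or DESeq2). Without wild-type pulmonary library 1, 34 of the 40 were lower in the pulmonary libraries, with a median of -0.11 (all genes 52.79% and -0.01). As that library was singled out for high proliferation genes, a downward shift of the pulmonary side on leaving it out was fixed in advance. The member with the smallest p was Racgap1, at 0.16 (SE 0.15, 95% interval -0.16 to 0.48; limma adjusted p = 1). Valve and library batch cannot be told apart here.

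Genes of the neighbouring programmes were read on the same scale. As wild-type pulmonary library 1 was singled out for high proliferation genes, an upward shift of their pulmonary differences on leaving it out follows from that choice. Of 82 further mitosis genes, 59 lay below 0 in the pulmonary valve (median -0.19), 47 without wild-type pulmonary library 1 (median -0.04), and 53 in the aortic valve (median -0.07); none passed the test. Cdca5 (sororin), which holds sister chromatids together, averaged 29.1 ± 8.49 (SD, n = 4) over the wild-type and 12.9 ± 4.34 over the mutant pulmonary libraries. Its pulmonary libraries 1 to 4 were at 37.2, 35.1, 25.0 and 19.2 for wild type and at 16.1, 6.85, 15.96 and 12.7 for mutants, without overlap, and the log2 difference was -1.13 (SE 0.38; limma adjusted p = 1). Over all genes tested 1.05% separated this way, and Cdca5 was named because its p was among the smallest of its list. In the aortic valve Cdca5 averaged 16.4 ± 6.49 and 16.5 ± 7.93. Cep55, which acts at the final cut between daughter cells, had log2 differences of -0.46 in the aortic and -0.68 in the pulmonary valve, and Cenph, an inner kinetochore gene, -0.58 and -0.47.

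Of 36 DNA replication genes, active in the phase before mitosis, 28 lay below 0 in the aortic valve (median -0.15) and 30 in the pulmonary valve (median -0.18), and 15 in the pulmonary valve without wild-type pulmonary library 1 (median 0.05); none passed the test. Wild-type pulmonary library 1 was the highest of the 16 for 27 of these 36 genes and for 41 of the 82 further mitosis genes. Mcm6, a subunit of the replicative helicase, had aortic values of 163, 120.5, 123 and 108 for wild type and of 102, 97.3, 123 and 89.7 for mutants, which overlapped. In the pulmonary valve it was at 202, 113, 139.9 and 124 for wild type and at 93.2, 109, 93.5 and 76.6 for mutants, where the groups did not overlap (1.05% of all genes). Mcm6 too was named because its p was among the smallest of its list. Averaged over both valves its log2 difference was -0.46 (SE 0.14; limma adjusted p = 1). Mcm5, of the same helicase, had -0.48 (SE 0.17) and the DNA ligase gene Lig1 -0.29 (SE 0.14), both with a limma adjusted p of 1.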

How the data were processed

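RNA was isolated from laser-dissected valves, amplified before library preparation, and made into libraries in a separate batch for each valve, per the labels' protocols. Per the submitters' processing notes, the genome build was GRCm38 and the tools named, with no role or order, were RSEM 1.2.3, FastQC, cutadapt 1.6 and CASAVA 1.8.2. Normalisation, low-value filter, strand setting and the choice of dissected regions were not given in the sources used here. A normalised signal per gene and library is what the deposited table holds, and its values equal CPM under trimmed-mean factors recomputed with edgeR 4.0.16 (largest difference 4.9e-09%). Within a library 100% of the values came out as whole reads at a tolerance of 0.05 read. Symbols were found for 13780 of 13964 gene IDs.

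The main test was limma 3.58.1 (R 4.3.3) on log2(value + 1), with 1 mean per group over all 16 libraries and a mean-variance trend. A filter (value of 1 or more in 4 or more libraries) left 13963 genes, all 40 members among them. All tests were two-sided, adjusted by Benjamini-Hochberg over all genes, and called at 0.05, and log2 differences understate the change of low genes. Alternatives were edgeR's quasi-likelihood test and DESeq2 1.42.0 on the recovered reads, a litter block, library weights, other pseudocounts, filters and scalings, marker covariates and leaving out each library; those that join the litter block or edgeR with leaving out wild-type pulmonary library 1 were chosen after seeing the data. The scripts were tested on simulated data. Values of some marker genes are not reported here.

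Same-numbered wild-type and mutant libraries of a valve share a litter, per the labels. Deviations from the group means correlated within these pairs at 0.477, 0.011, 0.205 and 0.642 for aortic pairs, and at 0.49, -0.035, 0.066 and 0.453 for pulmonary pairs. The libraries come from 5 litters, and nothing says whether a library is 1 embryo, so p-values measure the spread between these libraries. Members, roles and lists were chosen with earlier results of these data known. Genes named by rule, with values, are the 5 usual markers of dividing cells (Mki67, Top2a, Ccnb1, Cdk1 and Birc5), the member with the smallest p of each role in each comparison, and the 3 genes with the smallest p for the mean genotype effect in each further list. Cdc20, Anln, Ccna2 and other members outside that rule were given after their values were seen. Gene positions are from the GENCODE annotation of GRCm38 and promoter windows from RefSeq on GRCm38.p6.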

Additional observations from a re-analysis of the deposited data

Results flagged for a closer look

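In each of the 4 groups, the highest and lowest library were checked for a gap from the others for the 23 members named by rule and the member mean. Of 96 groups checked 8 held such a library, where chance gives about 1 in 20 groups, or 4.8. Mki67 was at 1027 in mutant aortic library 4, above the other 3 at 595 to 650.1, and at 2013 in wild-type pulmonary library 1, above the others at 582 to 772. Ube2c was at 260 in the same wild-type pulmonary library, above 86.4 to 112. Ccnb1 was at 149.6 in wild-type aortic library 1, above 63.8 to 77.5, and Bub1b at 74.2 in wild-type aortic library 3, above 65.0 to 66.4. Hmmr was at 112.9 in mutant aortic library 4, above 71.9 to 77.2. Plk1 was at 41.9 in mutant pulmonary library 4, above 21.9 to 24.3, and Ncapg at 53.8 in mutant pulmonary library 3, above 38.8 to 39.6. Wild-type pulmonary library 1 and mutant aortic library 4 each held 2 of the 8.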

How the results depend on the processing

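No member passed the threshold under any alternative, and the smallest adjusted p of a member was 0.989 in the aortic valve, 0.704 in the pulmonary valve, 0.551 for their mean, 0.847 for the interaction and 0.999 between valves. Counts of genes called, 0 in each comparison with limma and all libraries, were 0 to 2 in the aortic valve and 0 to 3 for the mean when 1 library was left out, with 2 and 3 without wild-type aortic library 4 and 2 for the mean without wild-type pulmonary library 2. DESeq2 called 2 genes in the pulmonary valve and 5 for the mean, and a skeletal muscle marker covariate gave 2 for the mean. With litter as a block, 1 gene, no member, was called for the mean and none in the other comparisons (353, 785, 685, 437 and 149 genes at an unadjusted p under 0.05 in the aortic, pulmonary, mean, interaction and valve comparisons); the pairing changed no other call. The members' median difference ran from -0.11 to 0.09 in the aortic valve with 1 library left out, from -0.32 to 0.04 in the pulmonary valve, from -0.17 to -0.0038 for the mean, from -0.30 to 0.03 for the interaction and from -0.11 to 0.06 between valves. In the pulmonary valve, the 4 of 23 alternatives that put it above 0 are those without wild-type pulmonary library 1; the litter block and edgeR gave 0.04 and 0.02 without it. For the interaction the median was 0.20 without both wild-type pulmonary library 1 and wild-type aortic library 2, against -0.15 with all libraries; the cause was not tested. Of the 23 named members' 3197 values under alternatives, 325 had the other sign and none crossed the threshold. The median half-width of the members' 95% intervals, 0.58 per valve, limits what 4 libraries per group can show.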
